A study of Mus musculus with 12 samples.

Results

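The collagen chain genes of mouse are named Col, a type number, the letter a and a chain number. In the count table of 12 bulk RNA-seq libraries of 4T1 tumours, 44 of 35434 gene symbols had that form, and the 36 with at least 10 counts in 3 or more libraries are described here. They comprise 11 chains of fibrillar collagens, 6 chains of basement-membrane collagens and 19 others. The measurements were counts per gene, scaled here to library size with trimmed-mean (TMM) factors in the usual unit, written CPM, and the deposited FPKM, which also divides by gene length and is used below wherever levels of different genes are set side by side.

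4T1 is a mouse mammary carcinoma line, and the tumours grew under the skin of female BALB/c mice, 6 to 8 weeks old, whose own stroma surrounds and enters the graft. HI mice lived in a hypobaric chamber set to an altitude of 3500 m and were injected with 10 mg/kg IOX2, an inhibitor of the oxygen-sensing prolyl hydroxylase PHD2. HC mice lived in the same kind of chamber and were given vehicle. MI mice lived at the ambient altitude of about 1500 m and were injected with the same dose of IOX2, and MC mice lived there and were given vehicle. Every group had 3 mice, each giving 1 tumour, with injections on 10 days from day 9 and collection on study day 22. Only the HI and HC mice lived in the chamber, so altitude and chamber housing cannot be told apart, and altitude stands for both below. The subcutaneous graft is 1 line in young mice of 1 strain, and each library mixes tumour and host cells: fewer cells of a type and less RNA per cell cannot be told apart.

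Collagens are triple helices of alpha chains whose prolines must be hydroxylated for the helix to be stable, by dioxygenases that use oxygen, iron and 2-oxoglutarate, as the HIF prolyl hydroxylases do. Fibrillar chains, led by types I, III and V, are made mostly by fibroblasts and form the cables of the stroma. Basement-membrane chains, type IV above all with types XV and XVIII beside it, form the sheets under endothelium, epithelium, muscle and fat cells. The other chains build beaded filaments (type VI), anchoring fibrils (type VII), lattices of vessel walls (type VIII) and molecules that decorate fibrils or span the cell membrane.

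3 members of the basement-membrane class are shown first, because they had the smallest p-values of the 36 members when altitude was averaged over treatment. Col4a5 and Col4a6 encode the alpha5 and alpha6 chains of type IV collagen and start close to each other on opposite strands of the X chromosome. Col18a1 encodes the type XVIII chain, whose end piece is released as endostatin. The stretches before their transcript starts, from RefSeq on GRCm38.p6, are printed 5′ to 3′ on the gene's own strand. That build is older than the GRCm39 named in the submitters' processing notes. Capitals mark the CCAAT box, also read as its reverse complement ATTGG, and the GC box GGGCGG, also read as CCGCCC, and no marked stretch overlaps another. The Col4a5 stretch lies on the plus strand at chrX:141475169-141475369, that of Col4a6 on the minus strand at chrX:141474096-141474326 and that of Col18a1 on the minus strand at chr10:77166531-77166780, and each ends before the first annotated transcript of its gene begins.
Col4a5: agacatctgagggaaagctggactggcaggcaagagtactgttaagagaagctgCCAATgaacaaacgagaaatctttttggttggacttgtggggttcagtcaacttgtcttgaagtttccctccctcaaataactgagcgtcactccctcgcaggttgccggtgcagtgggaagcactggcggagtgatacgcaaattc
Col4a6: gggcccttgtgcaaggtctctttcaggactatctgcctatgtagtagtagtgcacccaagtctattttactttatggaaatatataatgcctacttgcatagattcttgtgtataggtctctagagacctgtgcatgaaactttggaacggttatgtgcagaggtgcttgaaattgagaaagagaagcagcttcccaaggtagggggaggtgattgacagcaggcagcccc
Col18a1: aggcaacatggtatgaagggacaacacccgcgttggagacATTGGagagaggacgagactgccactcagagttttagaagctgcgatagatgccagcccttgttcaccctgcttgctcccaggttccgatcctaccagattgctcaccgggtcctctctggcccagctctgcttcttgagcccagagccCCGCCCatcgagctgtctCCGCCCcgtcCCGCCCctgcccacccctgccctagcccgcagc

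The Col4a5 stretch held 1 CCAAT and the Col18a1 stretch 1 CCAAT and 3 GC boxes, while none of the motifs searched was in the printed Col4a6 stretch. The full 250 bases before the start, which run past the printed stretches, held 1 GC box for Col4a5 and 1 for Col4a6. The core of the hypoxia-response element was searched as ACGTG and as GCGTG, and the TATA box as TATAAA, each on both strands, and none of them was in any of the 3 printed stretches. RefSeq windows matched 30 of the 36 members and gave 32 starts (Col12a1, Col14a1, Col1a1, Col2a1, Col5a2 and Col9a3 had none), and the 250 bases before each start were searched. ACGTG was in 12.5% of the collagen windows and 16.6% of all 32851 windows, GCGTG in 25% and 28.2%, and CCAAT in 34.4% and 33.8%. TATAAA was in 15.6% of the collagen windows and 12.4% of all windows. GGGCGG was in 62.5% of the collagen windows, or 20 of 32, and 32.7% of all windows.

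Type I and type III chains were the most abundant collagens in all 4 groups. Col1a1, the alpha1 chain of type I, averaged 483 ± 27.7 FPKM in HI, 595 ± 175 in HC, 539 ± 99.4 in MI and 484 ± 79.0 in MC (SD, n = 3 each). Col1a2, the partner chain of type I, averaged 414 ± 16.0 FPKM in HI, 504 ± 151 in HC, 469 ± 87.5 in MI and 425 ± 70.7 in MC (SD, n = 3 each). Col3a1, the single chain of type III, averaged 427 ± 59.9 FPKM in HI, 514 ± 218 in HC, 497 ± 109 in MI and 417 ± 138 in MC (SD, n = 3 each). These 3 genes took 55.2% (HC3) to 64.4% (HC1) of all collagen counts. The 36 members together took 1.06% (MC3) to 1.93% (HC1) of a library's counts, with 95% Wilson intervals that reached at most 0.005 percentage points to each side and cover counting error only.

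On the same per-length scale, 5 members averaged 100 FPKM or more over the 12 libraries: the 3 above, Col4a1 (alpha1 of type IV, 123 to 170.5 FPKM across libraries) and Col6a1 (alpha1 of type VI, 75.5 to 144 FPKM). Another 12 members lay between 10 and 100 FPKM, among them Col4a2 (79.8 to 107 FPKM), Col18a1 (32.1 to 61.6 FPKM), Col15a1 (16.6 to 38.5 FPKM), the type V chains Col5a1, Col5a2 and Col5a3 that start fibrils, Col6a2 and Col6a3, Col8a1, the fibril-surface chains Col12a1 and Col16a1, and Col7a1. Col14a1, Col4a5 (2.46 to 15.2 FPKM) and Col27a1 lay between 1 and 10 FPKM. The remaining 16 averaged from 0.0323 (Col25a1) to 0.846 FPKM (Col23a1). They are the fibrillar Col2a1, Col11a1, Col11a2 and Col24a1, the basement-membrane Col4a6, the type VI chains Col6a5 and Col6a6, the short chains Col8a2 and Col10a1, the fibril-associated Col9a3 and Col20a1, the membrane-spanning Col13a1, Col17a1, Col23a1 and Col25a1, and Col28a1. Of the 36 members, 30 had at least 10 counts in all 12 libraries. Col10a1 was the member nearest the count rule, with 10 or more counts in 3 libraries (10, 16 and 28), and Col19a1 the nearest outside it, with 10 or more in 2 (15 and 33). Col22a1, Col26a1, Col4a3, Col4a4, Col6a4, Col9a1 and Col9a2 were further below the rule.

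**Figure D1:**
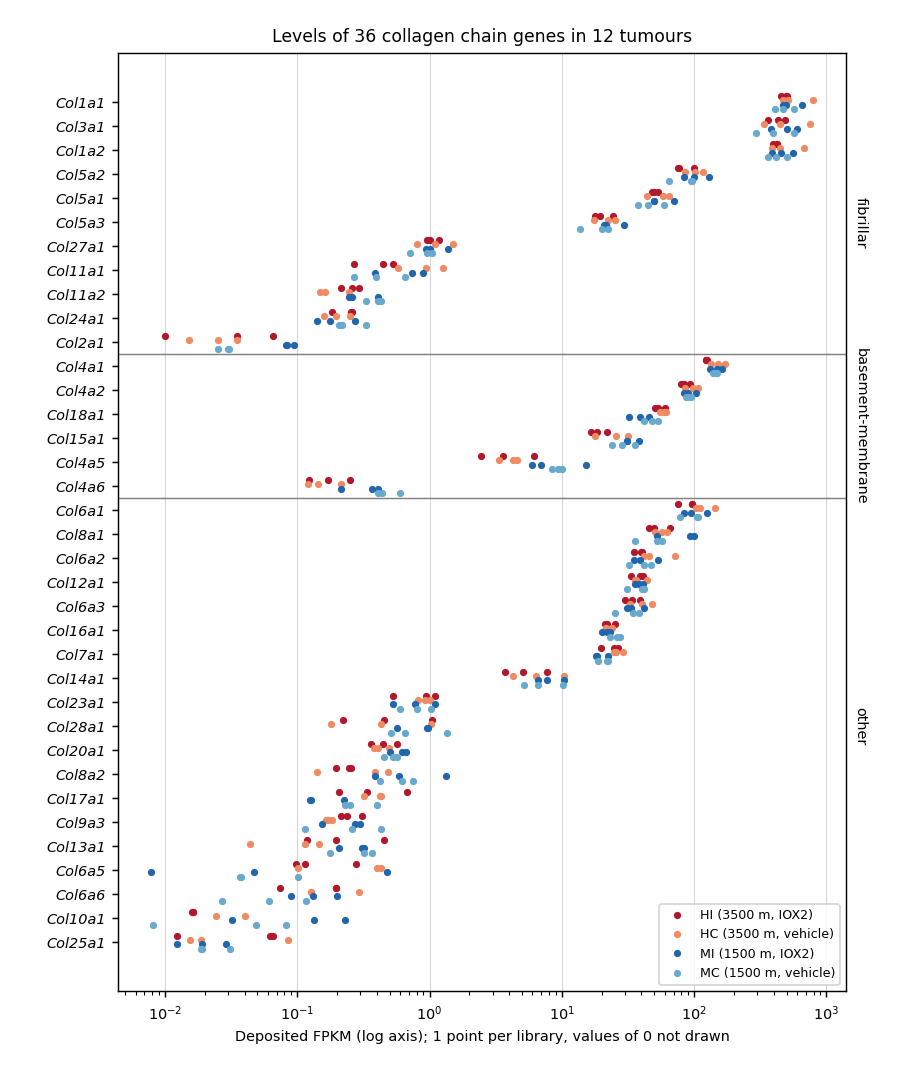
Deposited FPKM (log axis) of the 36 collagen chain genes, 1 point per library, coloured by group and sorted within each class by mean level. The 3 chains of types I and III lie between 292 and 795 FPKM in every library, and 16 members average under 1 FPKM.

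FPKM ratios between chains of 1 collagen type differed in how far they spread over the 12 tumours. The ratio of Col1a1 to Col1a2 ran from 1.09 (MI3) to 1.21 (HC3), a 1.11-fold span, while Col1a1 itself spanned 1.93-fold. That of Col6a1 to Col6a2 ran from 2.01 (HC1) to 2.56 (MC2) and that of Col5a2 to Col5a1 from 1.57 (HI2) to 2.11 (MC2). For Col4a1 over Col4a2, the chains of the common type IV network, the ratio ran from 1.32 (HI1) to 1.67 (MI2), a 1.27-fold span that is little less than those of the 2 genes (1.39-fold and 1.34-fold). Col8a1 over Col8a2, the type VIII chains, ran from 70.6 (MC1) to 359 (HC3). The ratio of Col4a5 to Col4a1 spanned 5.85-fold, with 0.0201 to 0.0497 in HI, 0.0196 to 0.0342 in HC, 0.0368 to 0.115 in MI and 0.0576 to 0.0726 in MC. On this ratio every HC tumour lay below every MC tumour, while HI and MI overlapped. For Col18a1 over Col15a1, the type XVIII chain over the type XV chain, the ratio was 2.30 to 3.24 in HI, 1.86 to 3.10 in HC, 1.01 to 1.47 in MI and 1.35 to 1.87 in MC. All 3 HI tumours stood above all 3 MI tumours on it, and the HC and MC ranges overlapped at their edge. These ratios were chosen with values known and are given as descriptions.

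Library totals ran from 31661685 (HC1) to 40019343 (MI2) counts. Epithelial keratin Krt8 stood at 888 to 1287 CPM, as the labelled 4T1 tumour calls for, and 10 of 10 fibroblast markers were detected in every library, with summed levels of 875 to 1225 CPM in HI, 947 to 1463 CPM in HC, 847 to 1403 CPM in MI and 872 to 1238 CPM in MC. Markers of other host tissue varied between libraries. The summed level of 7 skeletal muscle markers was 452 CPM in MI1 and 277 in HC1, against 26.6 in MI2, the lowest, and all 7 were above 0 in every library. The 6 fat cell markers summed to 27.9 to 202 CPM in HI, 52.3 to 406 CPM in HC, 48.9 to 99.9 CPM in MI and 25.2 to 39.6 CPM in MC, with all 6 above 0 everywhere. Of the cartilage and bone list, Matn1 was at 0 in all 12 libraries, and Acan, Bglap and Sp7 were at or below 0.0783 CPM.

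Fibrillar chains varied between tumours of the same group as well as between groups. The median of the 11 fibrillar chains, as the log2 CPM deviation from each gene's mean over the 12 libraries, was 0.0027, -0.11 and -0.14 in HI1 to HI3, 0.28, 0.0032 and -0.16 in HC1 to HC3, 0.40, -0.18 and 0.14 in MI1 to MI3 and 0.11, -0.11 and -0.45 in MC1 to MC3. MI1 and HC1 were therefore the 2 highest libraries and MC3 the lowest. Of the 36 members, 21 had their highest CPM in MI1 or HC1 (8 of 11 fibrillar, 3 of 6 basement-membrane, 10 of 19 other), and 13 had their lowest in MC3 (7 fibrillar, 0 basement-membrane, 6 other). The pooled SD within groups was 0.235 for the fibrillar median, 0.211 for the other chains and 0.0978 for the basement-membrane chains. MI1 and HC1 are also the libraries with the most skeletal muscle marker RNA, and MC3 was at 34.3 CPM for that sum. The part of muscle or other host tissue in the collagen levels was not tested.

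**Figure D2:**
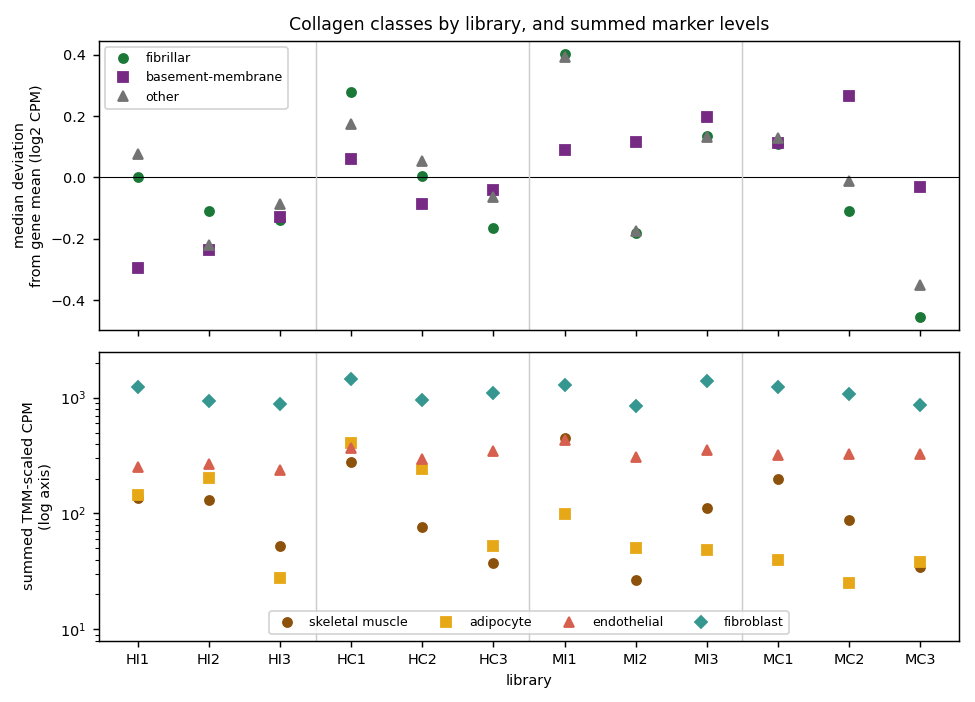
Upper panel, the median log2 CPM deviation of each collagen class in each library from the gene means over 12 libraries; lower panel, summed CPM (log axis) of skeletal muscle, adipocyte, endothelial and fibroblast markers in the same libraries. MI1 (0.40) and HC1 (0.28) are highest for fibrillar chains and for skeletal muscle markers, and MC3 (-0.45) is lowest for fibrillar chains.

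The first comparison asks what altitude does in vehicle-treated mice (HC against MC). No collagen gene was called, where called means a Benjamini-Hochberg adjusted p under 0.05 over the 15269 genes tested with edgeR's quasi-likelihood test. None of the 15269 genes was called either (0%), and limma-voom and limma on FPKM called no collagen. DESeq2 called 2, Col4a6 and Col11a2, among 314 genes in all. Both had been left out by the filter of limma on FPKM, which could not call them. With the replicate number as a block, 13 genes were called and still no collagen gene. An unadjusted p under 0.05 was reached by 9 members (25.0%), 5 higher and 4 lower in HC, against 12.0% of all genes tested. The 3 HC and the 3 MC values did not overlap for 8 members (22.2%), beside 21.7% of all genes.

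The member with the smallest p was Col4a6, whose chain joins alpha5 in the type IV network of skin and smooth muscle. It had 0.948, 0.811 and 1.48 CPM in HC and 2.69, 2.98 and 4.10 in MC. Each HC tumour lay below each MC tumour, on 31, 32 and 57 counts in HC and 107, 118 and 161 in MC. The log2 change was -1.59 (SE 0.36, adjusted p = 0.203). Col4a5, the chain that is mutated in Alport kidney disease and a partner in both minor type IV networks, had 21.2, 29.9 and 28.3 CPM in HC and 53.7, 61.4 and 66.4 in MC. Again the groups did not overlap, and the log2 change was -1.19 (SE 0.38, adjusted p = 0.282). With only the HC and MC libraries in the fit, Col4a5 was called (log2 change -1.18, adjusted p = 0.0308), among 63 genes in all. Over all alternatives its adjusted p ran from 0.0308 to 0.757. Col4a1 and Col4a2, which form the common type IV network, had log2 changes of 0.07 ± 0.09 and 0.09 ± 0.10 (± SE, as for every log2 change below).

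Col11a2, a type XI chain best known from cartilage fibrils, was lower in every HC tumour, with 1.22, 1.14 and 1.95 CPM in HC and 3.07, 2.55 and 3.36 in MC. Its log2 change was -1.06 (SE 0.28, adjusted p = 0.235). Col11a1, the other type XI chain and one made by fibroblasts of many carcinomas, pointed the other way at 1.08 ± 0.42, with overlapping groups. The other members with an unadjusted p under 0.05 were Col18a1, Col7a1 (0.33 ± 0.12), Col13a1 (-1.47 ± 0.56), Col6a6 (1.43 ± 0.59) and Col6a5 (2.39 ± 1.08). Col6a5 was the least steady of them, with 105, 37 and 43 counts in HI, 130, 150 and 38 in HC, 176, 3 and 17 in MI and 14, 38 and 14 in MC, so that MI1 and MI2 of 1 group hold both its highest and its lowest count. The basement-membrane chain Col18a1 had 456, 450.2 and 430.2 CPM in HC and 403, 367 and 319.7 in MC, which do not overlap, and a log2 change of 0.29 ± 0.12. Col15a1 had 131, 169 and 96.6 CPM in HC and 149.9, 189.7 and 129 in MC, which do overlap, and a log2 change of -0.24 ± 0.20.

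Fibrillar chains stood slightly higher in HC and none of those of types I, III and V passed. Of the 11, 8 had positive log2 changes, with a median of 0.24 beside -0.01 for all genes tested. Col1a1 had 4565, 3056 and 2862 CPM in HC and 3305, 2787 and 2462 in MC, and a log2 change of 0.29 ± 0.18. Col1a2 had 3411, 2331 and 2079 CPM in HC and 2561, 2159 and 1894 in MC, and Col3a1 4079.8, 2501 and 1901 CPM in HC and 3085, 2190.3 and 1639 in MC. HC1 alone stands above the MC range for all 3 genes. The labels name no pairing of HC with MC. Replicate numbers were taken as pairs only because these same data correlated that way, and chance was not tested. Taken that way, each HC tumour lay above its MC partner for Col1a1, Col1a2 and Col3a1 (3 of 3 pairs for each gene). The share of all genes with such pairs was not counted, so this is a description only. With the number as a block, the fibrillar median was 0.24. Over the fits that left out 1 library, the fibrillar median ran from 0.05 (without HC1) to 0.36 (without MC1), and without MC3 it was 0.10. The basement-membrane median was -0.08, and -0.56 when only the type IV chains are counted, and it ran from -0.15 (without MC3) to 0.0064 (without MC2). For the 19 other chains the median was 0.17 and ran from 0.0039 (without MC3) to 0.29 (without MC1), with Col6a1 at 0.30 ± 0.18 and Col6a3 at 0.31 ± 0.18. Adipocyte markers stood higher in HC too: 6 of 6 had an unadjusted p under 0.05, against 12.0% of all genes, and 0 were called. Their sums were 406, 241 and 52.3 CPM in HC1 to HC3, against 25.2 to 39.6 CPM in MC, so HC3 was much nearer to MC. Of the 7 skeletal muscle markers, 6 had positive changes (median 0.24) with 0 called. Fibroblast markers were positive for 5 of 10 (median -0.0067) and 4T1 epithelial markers for 6 of 6 (median 0.14, 1 at an unadjusted p under 0.05). The part of fat, muscle, fibroblasts or tumour cells in the collagen values was not tested.

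**Figure D3:**
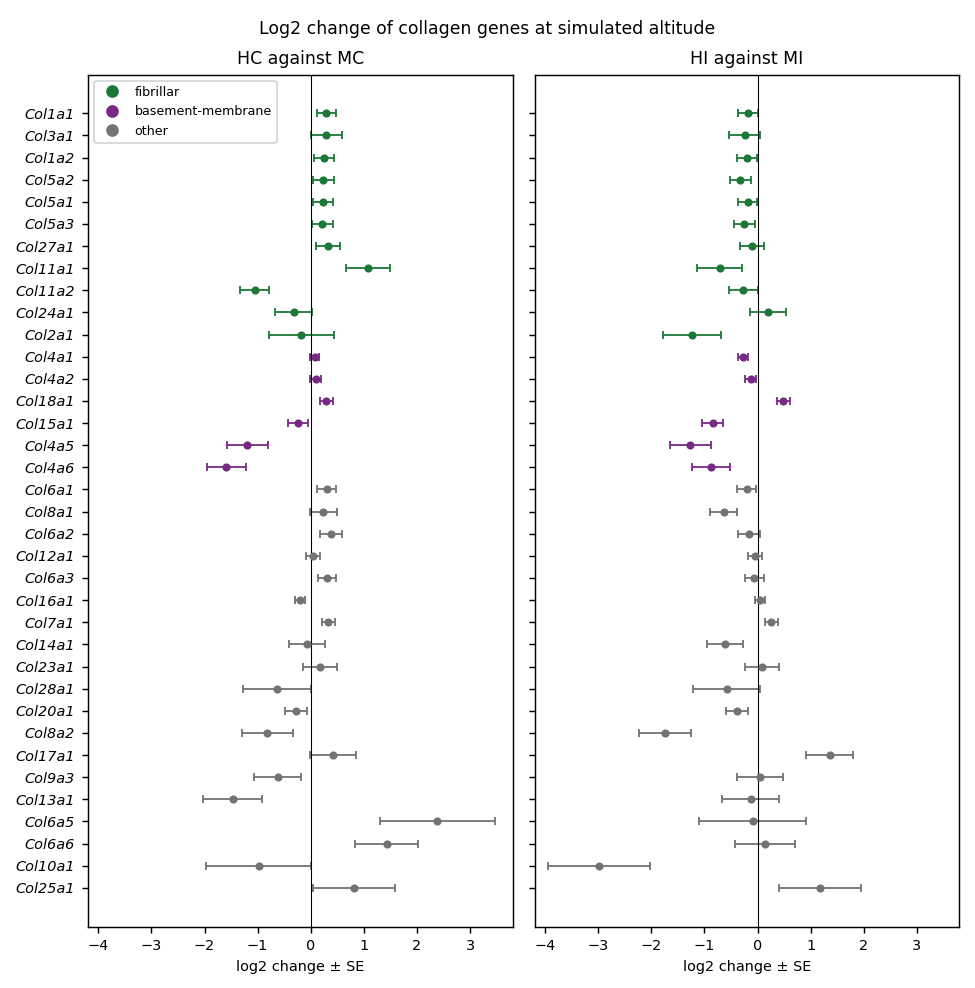
Log2 change with SE of the 36 collagen chain genes at altitude, in vehicle-treated mice (HC against MC, left) and IOX2-treated mice (HI against MI, right), from edgeR, coloured by class. Of the 11 fibrillar chains, 8 lie above 0 on the left and 1 on the right, and Col4a5 and Col4a6 lie below 0 on both sides.

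With IOX2 in both groups (HI against MI), most collagen chains stood lower at altitude, and again none was called. The log2 change was negative for 27 of 36 members, for 10 of 11 fibrillar chains (median -0.24) and for 5 of 6 basement-membrane chains (median -0.56), beside a median of -0.01 over all genes. edgeR called 0 of 15269 genes (0%), and limma-voom and limma on FPKM called no collagen. DESeq2 called 5, among 381 genes in all: Col15a1, Col18a1, Col4a1, Col4a5 and Col8a2. At an unadjusted p under 0.05 stood 10 members (27.8%), 2 higher and 8 lower, against 15.2% of all genes tested, and 5 of these 10 are basement-membrane chains. Values did not overlap between the groups for 6 members (16.7%), beside 14.6% of all genes. Col2a1 and Col10a1 are counted among both the 10 and the 6. They met the member rule mainly through ambient libraries, so both counts are partly built in. Without MI2, 4 collagen genes were called by edgeR (Col15a1, Col18a1, Col8a1 and Col8a2) and 520 genes in all.

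Col15a1, a basement-membrane proteoglycan of capillaries and muscle, had the smallest p. It had 102, 114 and 86.9 CPM in HI and 202, 161 and 178 in MI. All HI tumours lay below all MI tumours, with a log2 change of -0.84 (SE 0.20, adjusted p = 0.165). Col18a1, its closest relative, was higher in HI, with 474, 377 and 403 CPM in HI and 293, 340.3 and 265 in MI. The groups did not overlap, and the log2 change was 0.48 (SE 0.12, adjusted p = 0.188). Both genes were read in the same tumours with opposite sign, as their FPKM ratios show. Col8a2, a short-chain collagen of vessel walls and of the cornea, had 0.914, 1.09 and 1.12 CPM in HI and 5.88, 1.70 and 2.85 in MI, on 35, 44 and 45 counts in HI and 231, 70 and 100 in MI. Every HI value was lower, and the log2 change was -1.74 (SE 0.49, adjusted p = 0.214). Without MI1 and HC1 it was -1.13.

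Among the type IV chains, Col4a1 had 837, 815 and 805 CPM in HI and 1064, 965 and 949 in MI, without overlap and with a log2 change of -0.28 ± 0.09. Col4a2 had 619.8, 529 and 506 CPM in HI and 662, 564 and 579.96 in MI, which overlap, and -0.13 ± 0.10. Col4a5 (-1.26 ± 0.38) and Col4a6 (-0.88 ± 0.36) lay lower in HI with overlapping groups. Beyond the basement-membrane class, Col10a1 (-2.98 ± 0.96), Col2a1 (-1.23 ± 0.54) and Col8a1 (-0.64 ± 0.25) had negative and Col17a1 (1.36 ± 0.44) positive changes at an unadjusted p under 0.05. Col2a1 met the member rule through MI, and Col10a1 through MC1, MI1 and MI3, so their lower HI values are partly built in. Of the 8 endothelial markers, all detected in every library, 6 had a lower and 1 a higher value in HI at an unadjusted p under 0.05 and 0 were called. Their summed level was 238 to 267 CPM in HI, 294 to 370.3 CPM in HC, 309 to 429.5 CPM in MI and 319.8 to 329 CPM in MC, so the HI range lies below those of the other groups. The mural list (7 of 7 detected) summed to 234 to 264 CPM in HI, 269 to 313 CPM in HC, 308 to 477 CPM in MI and 287 to 312 CPM in MC. The part of fewer vessel cells in the basement-membrane values was not tested.

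Type I and III chains lay a little lower in HI, within the spread of the tumours. Col1a1 had 2759.8, 2863 and 2939 CPM in HI and 3816, 2690.01 and 3184 in MI, and a log2 change of -0.18 ± 0.18. Col1a2 had 2132, 2167 and 2178 CPM in HI and 2901, 1978 and 2561 in MI, and Col3a1 2487, 2639 and 1992 CPM in HI and 3299.7, 2077 and 3032 in MI. These ranges overlap, and MI1 holds the highest value of each. With 1 library left out, the fibrillar median ran from -0.34 (without MI2) to -0.12 (without MI1). The type VI chains Col6a1 and Col6a3 had log2 changes of -0.20 ± 0.18 and -0.06 ± 0.18, and the 19 other chains a median of -0.10, which ran from -0.30 (without MI2) to -0.0037 (without MI1). Markers of fibroblasts and muscle stood lower in HI as well: 10 fibroblast markers of 10 had negative changes (median -0.33, 3 at an unadjusted p under 0.05). So did 7 skeletal muscle markers of 7 (median -1.04, 0 at that p), with 0 called in either list. Of the 6 markers of 4T1 epithelium, 5 had positive changes (median 0.22, 2 at that p, 0 called). The part of these cell types in the collagen values was not tested.

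Averaging the altitude effect over treatment uses all 12 libraries, and here Col4a6, Col18a1 and Col4a5 came closest to the threshold. edgeR called 76 of 15269 genes (0.498%) and 0 collagen genes, and limma-voom and limma on FPKM called 0 collagens. DESeq2 called 6, among 866 genes in all: Col4a6, Col4a5, Col15a1, Col18a1, Col8a2 and Col11a2. Col4a6 and Col11a2 were not tested by limma on FPKM, whose filter had left them out. An unadjusted p under 0.05 was reached by 10 members (27.8%), 3 higher and 7 lower at altitude, against 17.3% of all genes tested. For 0 members did all 6 altitude values lie outside the range of all 6 ambient values, beside 1.95% of all genes. With no filter on low counts edgeR called 3 members (Col4a5, Col4a6 and Col18a1), among 166 genes in all. It called 2 without MI2 (Col4a5 and Col18a1, among 203 genes) and 2 without HI3 (Col4a5 and Col4a6, among 339 genes). With the replicate number as a block it called 4 (Col4a5, Col4a6, Col15a1 and Col18a1), among 155 genes in all. No pairing is labelled, and libraries matched by number only between HC and MC.

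Col4a6 had 0.861, 1.13 and 1.67 CPM in HI, 0.948, 0.811 and 1.48 in HC, 1.42, 2.67 and 2.68 in MI and 2.69, 2.98 and 4.10 in MC. The HI and HC values run low, from 0.811 to 1.67 CPM, and only the MI1 value of the ambient tumours falls among them. The log2 change was -1.24 (SE 0.25, adjusted p = 0.0656), and its adjusted p ran from 0.000401 to 0.169 over the alternatives. Col4a5 had 16.6, 23.0 and 39.6 CPM in HI, 21.2, 29.9 and 28.3 in HC, 38.8, 44.0 and 108 in MI and 53.7, 61.4 and 66.4 in MC. The highest HI tumour, HI3, lies above MI1, and MI3 stands above every other library. The log2 change was -1.23 (SE 0.27, adjusted p = 0.0702), over a range of 0.000601 to 0.173. Without MI1 and HC1 the log2 changes were -1.32 for Col4a6 and -1.29 for Col4a5.

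Col18a1 had 474, 377 and 403 CPM in HI, 456, 450.2 and 430.2 in HC, 293, 340.3 and 265 in MI and 403, 367 and 319.7 in MC. The HI and HC tumours lie at the top, and the 2 sets touch where MC1 exceeds HI2. Its log2 change was 0.39 (SE 0.08, adjusted p = 0.0702), the only positive one among the 6 basement-membrane chains, and its adjusted p ran from 0.00156 to 0.209 over the alternatives. Col15a1 had 102, 114 and 86.9 CPM in HI, 131, 169 and 96.6 in HC, 202, 161 and 178 in MI and 149.9, 189.7 and 129 in MC, lowest in HI and HC3, and a log2 change of -0.54 ± 0.14. The basement-membrane median was -0.32 (-0.66 for type IV chains alone), beside 0.02 for fibrillar chains, -0.0012 for the others and -0.02 for all genes. With 1 library left out the basement-membrane median ran from -0.36 to -0.27, and over all alternatives from -0.66 to -0.09. Its members were split: Col4a1 (-0.10 ± 0.06) and Col4a2 (-0.02 ± 0.07) lay near 0, far from Col4a5 and Col4a6, and Col18a1 was positive. With 1 library left out, the fibrillar median (-0.06 without HC1, 0.09 without HC3) and that of the others (-0.06 without MC3, 0.04 without HI2) took either sign. Changes were negative for 7 of 8 endothelial markers (median -0.32, 6 lower and 1 higher at an unadjusted p under 0.05) and positive for 6 of 6 adipocyte markers, all at that p. In either list 0 were called, and 17.3% of all genes stood at that p. Markers of 4T1 epithelium were positive for 5 of 6 (median 0.19, 2 at that p, 0 called). The part of these cell types was not tested. Outside the basement-membrane class, Col11a2 (-0.66 ± 0.19), Col8a2 (-1.28 ± 0.34), Col20a1 (-0.33 ± 0.14) and Col10a1 (-1.98 ± 0.69, a chain of growth cartilage, on at most 28 counts) were lower, and Col7a1 (0.29 ± 0.09), the anchoring fibril chain, and Col17a1 (0.89 ± 0.31), a chain of hemidesmosomes, were higher, all at an unadjusted p under 0.05. Col10a1 met the member rule only through ambient libraries (MC1, MI1 and MI3), so its lower values at altitude are partly built in. This holds also where it is counted among the members with an unadjusted p under 0.05. Epidermis makes both Col7a1 and Col17a1. The 4 keratinocyte markers tested had positive changes, 3 at an unadjusted p under 0.05 and 0 called, and the 6 found summed to 5.004 to 23.0 CPM in HI, 7.19 to 20.6 CPM in HC, 4.30 to 5.41 CPM in MI and 5.93 to 7.53 CPM in MC, with Krt1, Krt5, Flg and Dsg1a at 0 in at least 1 library. The part of skin in these values was not tested.

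**Figure D4:**
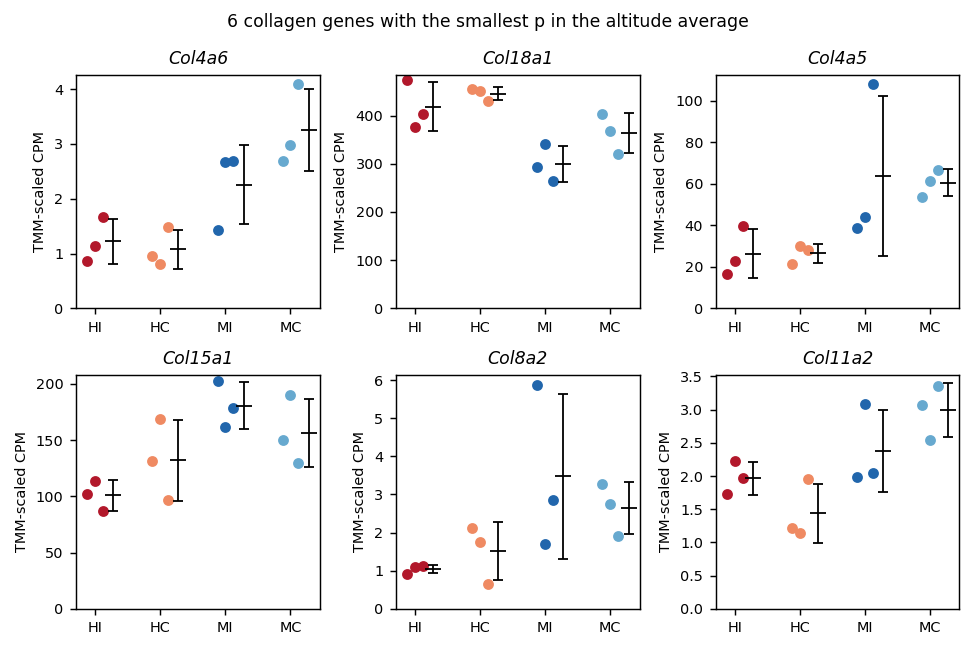
TMM-scaled CPM per tumour of the 6 collagen genes with the smallest p in the altitude average, with the mean and SD of each group beside the points (n = 3). Col4a6 and Col4a5 are low in HI and HC and high in most MI and MC tumours, Col18a1 runs the other way, and each gene has at least 1 ambient tumour inside the range of the altitude tumours.

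IOX2 at ambient altitude (MI against MC) was followed by no collagen call. edgeR called 4 of 15269 genes (0.0262%), none of them a collagen, and DESeq2, limma-voom and limma on FPKM called no collagen either. At an unadjusted p under 0.05 stood 4 members (11.1%), 2 higher and 2 lower in MI, against 9.39% of all genes, and values did not overlap for 4 members (11.1%), the same share as for all genes (11.1%). Col8a1, the short-chain collagen that endothelial and smooth muscle cells make, had 501, 261 and 515 CPM in MI and 264, 289.6 and 183 in MC. MI1 and MI3 were high and MI2 lay within the MC range, and the log2 change was 0.79 (SE 0.25, adjusted p = 0.492). Col2a1, the cartilage fibril chain, was read from 16, 19 and 16 counts in MI and 6, 5 and 6 in MC. All MI counts were higher, and the log2 change was 1.60 (SE 0.56, adjusted p = 0.492). Col2a1 reached 10 counts only in the MI libraries and HI1, so it met the member rule through MI. Its higher MI values are thus partly built in, also where it is counted among the 4 members. Col16a1, a fibril-associated chain, had 145, 136 and 139 CPM in MI and 162, 177 and 149.7 in MC, without overlap, and a log2 change of -0.22 (SE 0.09, adjusted p = 0.492).

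The fibrillar median was 0.28 in MI against MC, with 9 of 11 positive, and the basement-membrane and other medians were 0.05 and 0.09, beside 0.01 for all genes. With 1 library left out, the fibrillar median ran from 0.14 (without MC3) to 0.45 (without MI2), and it was 0.17 without MI1. The basement-membrane median ran from -0.06 (without MI3) to 0.09 (without MI2), and was 0.0075 without MI1, and that of the other chains from -0.06 (without MI1) to 0.24 (without MI2), so these took either sign. The type I and III log2 changes were 0.18 ± 0.18 for Col1a1, 0.17 ± 0.19 for Col1a2 and 0.28 ± 0.29 for Col3a1. Col18a1 was the member of the basement-membrane class with an unadjusted p under 0.05, at -0.28 ± 0.12. All 7 skeletal muscle markers and all 10 fibroblast markers also had positive changes (medians 1.02 and 0.21), as did 6 of 7 mural markers (median 0.38, 2 at an unadjusted p under 0.05) and 7 of 8 endothelial markers (median 0.14), with 0 of them called, and their part was not tested.

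At simulated altitude (HI against HC), IOX2 was followed by lower values for 25 of 36 members, none called. edgeR called 0 of 15269 genes (0%), and DESeq2, limma-voom and limma on FPKM called no collagen. An unadjusted p under 0.05 was reached by 4 members (11.1%), 1 higher and 3 lower in HI, against 4.85% of all genes, and 5 members (13.9%) had values that did not overlap, beside 11.4% of all genes. Col4a1 had 837, 815 and 805 CPM in HI and 1092, 881 and 1021 in HC. Each HI tumour lay below each HC tumour, and the log2 change was -0.29 (SE 0.09, adjusted p = 0.964). Col11a1 had 4.46, 3.55 and 2.14 CPM in HI and 9.88, 4.69 and 7.79 in HC, again without overlap, and a log2 change of -1.14 (SE 0.42, adjusted p = 0.964). Col13a1, a membrane-spanning chain of the neuromuscular junction, had 3.00, 1.23 and 0.747 CPM in HI and 0.275, 0.938 and 0.753 in HC. HI1 was far above the rest, HC1 was lowest, HI3 lay inside the HC range, and the log2 change was 1.32 (SE 0.56, adjusted p = 0.964). Col6a1 had 392, 295 and 374 CPM in HI and 555, 443 and 416 in HC, lower throughout in HI, with a log2 change of -0.41 ± 0.18, and Col6a3 one of -0.23 ± 0.18. Class medians were -0.13 (fibrillar), -0.13 (basement-membrane) and -0.09 (other), beside 0.0016 for all genes. Without HC1 the fibrillar median was -0.03 and without HC3 -0.28. The basement-membrane median ran from -0.23 (without HI1) to -0.08 (without HI2) and that of the other chains from -0.28 (without HI1) to -0.07 (without HI2). The endothelial markers, 8 of 8, had negative changes here, 5 at an unadjusted p under 0.05 and 0 called, and the fibroblast markers, 10 of 10, had them too (median -0.16, 0 at that p). The part of either cell type was not tested.

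Averaged over altitude, IOX2 was followed by no collagen call. edgeR called 6 genes (0.0393%), and DESeq2, limma-voom and limma on FPKM called no collagen. At an unadjusted p under 0.05 stood 2 members (5.56%), against 5.12% of all genes, and 0 members had all 6 IOX2 values outside the range of the 6 vehicle values, beside 0.177% of all genes. Col2a1 had 0.339, 0.173 and 0.0498 CPM in HI, 0.122, 0.177 and 0.0779 in HC, 0.407, 0.461 and 0.456 in MI and 0.151, 0.126 and 0.153 in MC, which are 2 to 19 counts a library, and a log2 change of 1.08 (SE 0.41, adjusted p = 0.759). Col2a1 met the member rule through MI, so its higher values there are partly built in, also where it is counted among the 2 members. Col18a1 had a log2 change of -0.19 (SE 0.08, adjusted p = 0.759), with negative sign at ambient altitude and -0.09 ± 0.12 in HI against HC. Col8a1 had 343, 248 and 227 CPM in HI, 283, 316 and 266 in HC, 501, 261 and 515 in MI and 264, 289.6 and 183 in MC, highest in MI1 and MI3, and a log2 change of 0.36 (SE 0.18, adjusted p = 0.759).

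The interaction asks whether the altitude effect differs between IOX2-treated and vehicle-treated mice, as the HI against MI change minus the HC against MC change. edgeR called 0 of 15269 genes (0%) and 0 collagens, and DESeq2, limma-voom and limma on FPKM called no collagen. An unadjusted p under 0.05 was reached by 3 members (8.33%), all negative, against 8.21% of all genes. Col11a1 had 4.46, 3.55 and 2.14 CPM in HI, 9.88, 4.69 and 7.79 in HC, 7.17, 3.06 and 6.47 in MI and 5.16, 3.20 and 2.19 in MC. On average HC was highest and MC and HI lowest, and the difference of log2 changes was -1.80 (SE 0.59, adjusted p = 0.596). Col4a1 had 837, 815 and 805 CPM in HI, 1092, 881 and 1021 in HC, 1064, 965 and 949 in MI and 941, 979.7 and 923 in MC. HI was lowest and the other groups overlapped, with a difference of -0.35 (SE 0.12, adjusted p = 0.596). For Col8a1, shown above, the difference was -0.87 (SE 0.36, adjusted p = 0.596). The fibrillar median was -0.46, with 9 of 11 negative, beside -0.02 for all genes, and -0.11 without MI1 and HC1. With 1 library left out it ran from -0.60 (without HC3) to -0.23 (without HC1). Some marker lists were negative here too: 10 of 10 fibroblast genes (median -0.41, 2 at an unadjusted p under 0.05) and 8 of 8 endothelial genes (median -0.66, 5 at that p). So were 7 of 7 skeletal muscle genes (median -1.22, 0) and 6 of 6 adipocyte genes (median -2.29, 0). Keratinocyte genes were positive for 3 of 4 (median 1.94) and 4T1 epithelial genes for 4 of 6 (median 0.04). In these lists 0 genes were called, and their part was not tested. Higher fibrillar values at altitude with vehicle and lower ones with IOX2 were thus not shown to differ gene by gene.

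Genes that make, cut, cross-link and bind collagen were followed as 7 lists with 56 genes, of which 54 were tested. 1 was called in any of the 7 comparisons: Pcolce2, an enhancer of the protease that trims the ends of procollagen, rose at altitude when averaged over treatment. It had 62.8, 48.3 and 46.0 CPM in HI, 47.7, 52.0 and 48.8 in HC, 28.3, 35.9 and 27.3 in MI and 43.1, 34.4 and 30.9 in MC. All 6 altitude tumours lay above all 6 ambient tumours, where 1.95% of all genes did not overlap in either direction. The log2 change was 0.62 (SE 0.11, adjusted p = 0.0436), and 0.498% of all genes were called in that average. The call was lost with limma-voom, in 9 of 12 fits that left out 1 library (it held without MC1, MI2 and HI3) and without MI1 and HC1, with adjusted p from 6.09e-05 to 0.158 over all alternatives. Of the 54 genes, 6 were higher and 13 were lower in that average with an unadjusted p under 0.05, which is 35.2% beside 17.3% of all genes. In HI against MI, 4 were higher and 13 lower (31.5% beside 15.2%), and in the interaction 1 was positive and 7 were negative (14.8% beside 8.21%). The share was near or below that of all genes in the other comparisons: 3 higher and 1 lower in HC against MC (7.41% beside 12.0%), 0 and 3 in HI against HC (5.56% beside 4.85%), 2 and 0 in MI against MC (3.7% beside 9.39%) and 0 and 1 in the IOX2 average (1.85% beside 5.12%).

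Among 10 genes of prolyl hydroxylation, 4 stood lower and 1 higher in the altitude average at an unadjusted p under 0.05 (17.3% of all genes did), 0 were called and the median log2 change was -0.05, beside -0.02 for all genes. P3h1, a prolyl 3-hydroxylase of the endoplasmic reticulum, had 31.1, 35.5 and 32.4 CPM in HI and 50.4, 40.7 and 37.1 in MI. P3h4 had 9.03, 10.7 and 11.2 CPM in HI and 18.1, 13.5 and 13.4 in MI. Their log2 changes in HI against MI were -0.37 ± 0.13 for P3h1 and -0.54 ± 0.15 for P3h4. P4ha3, a catalytic subunit of the collagen prolyl 4-hydroxylase, had an interaction value of -0.73 (SE 0.25, adjusted p = 0.596). Of 5 genes for hydroxylysine and its sugars, 1 had an unadjusted p under 0.05 in the altitude average, Colgalt1, a galactosyltransferase, at -0.17 (SE 0.05, adjusted p = 0.122). Plod2, the lysyl hydroxylase of telopeptides, had a log2 change of 0.44 (SE 0.19, adjusted p = 0.492) in MI against MC, and Colgalt2 an interaction value of -2.04 (SE 0.75, adjusted p = 0.596).

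Folding and export showed 7 of 7 genes tested and 0 called. Fkbp14, a prolyl isomerase of the endoplasmic reticulum, had an altitude average of -0.66 (SE 0.16, adjusted p = 0.0826), and Mia2, which helps load large cargo for export, one of 0.20 (SE 0.06, adjusted p = 0.125). Serpinh1, the collagen chaperone HSP47, had 384, 441 and 466 CPM in HI and 631, 548 and 538 in MI and a log2 change of -0.41 (SE 0.11, adjusted p = 0.193) in HI against MI. For propeptide cleavage, Adamts14, which removes amino-terminal propeptides, had an altitude average of 0.39 (SE 0.14, adjusted p = 0.192), and Bmp1, which removes carboxy-terminal ones, a HI against MI change of 0.19 (SE 0.09, adjusted p = 0.347). None of the 6 cross-linking genes was called. Lox, a lysyl oxidase, had 382, 165 and 436 CPM in MI and 188, 177 and 122 in MC, higher in most MI tumours, and a log2 change of 1.01 (SE 0.34, adjusted p = 0.492). Loxl1 stood at -0.34 ± 0.18 in HI against MI and Loxl3 at -0.44 ± 0.21 in the interaction.

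Of 10 fibril-regulating proteoglycans and partners, 3 were lower and 1 higher with an unadjusted p under 0.05 in the altitude average, beside 17.3% of all genes, and 0 were called. Dcn, Dpt, Lum and Postn of this list are also 4 of the 10 fibroblast markers. Lum, the fibril-spacing proteoglycan lumican, had 35.2, 37.1 and 43.3 CPM in HI, 50.6, 30.6 and 40.2 in HC, 69.7, 31.7 and 187 in MI and 92.0, 60.1 and 45.7 in MC. MI3 is far above the rest, and the log2 change was -1.01 (SE 0.35, adjusted p = 0.177). Fmod, fibromodulin, had a HI against MI change of -1.91 (SE 0.59, adjusted p = 0.229), and -0.83 without MI1 and HC1. Ctsk, the collagen-cutting protease cathepsin K, had an altitude average of 0.46 (SE 0.16, adjusted p = 0.176). Of 9 receptors tested, 4 were lower and 1 higher in HI against MI with an unadjusted p under 0.05, beside 15.2% of all genes, with a list median of -0.27 and 0 called. Mrc2, which takes up cut collagen, stood at -0.49 (SE 0.16, adjusted p = 0.244) and Ddr2, a receptor kinase for fibrillar collagen, at -0.33 (SE 0.13, adjusted p = 0.279). Ddr1, the epithelial one, had an interaction value of 0.58 (SE 0.22, adjusted p = 0.596).

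**Figure D5:**
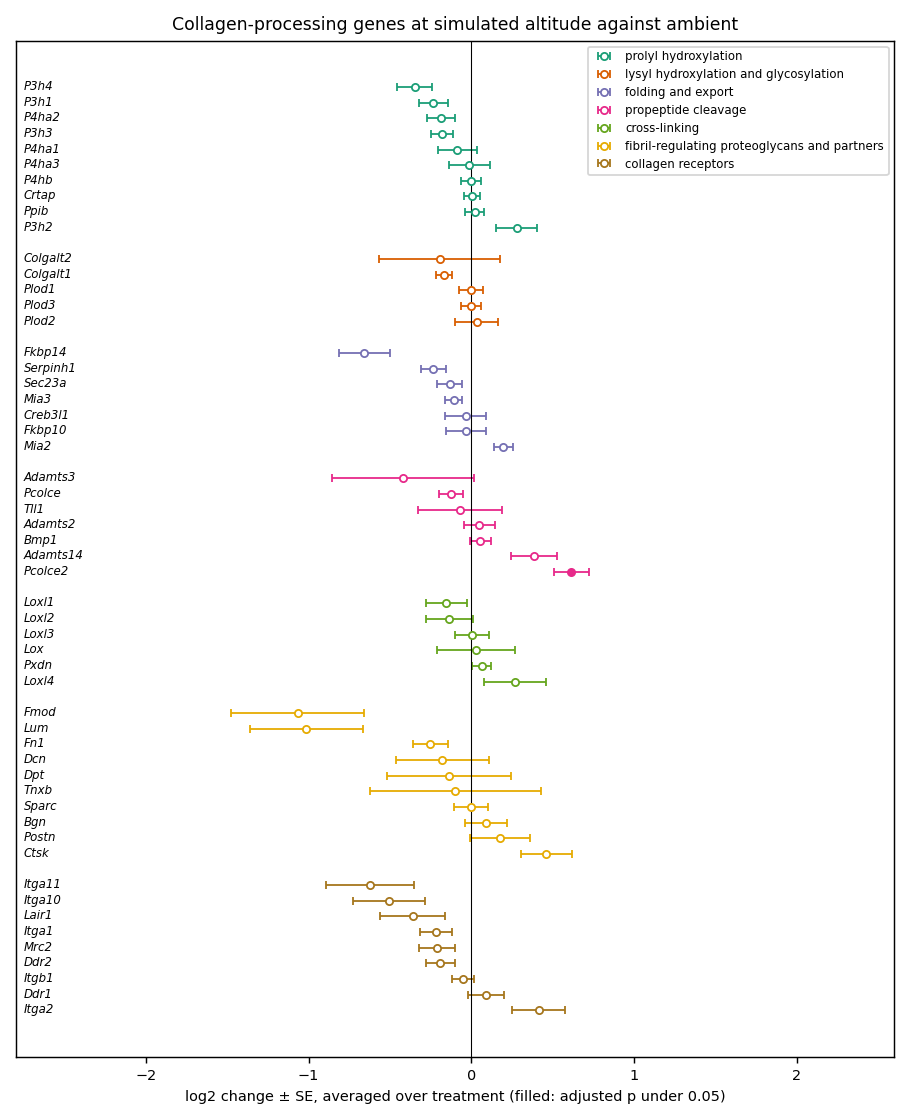
Altitude average of log2 change with SE (edgeR) for the 54 tested genes that process or bind collagen, grouped by list; a filled point marks an adjusted p under 0.05. Pcolce2 (0.62) is the one filled point, and Fmod and Lum lie furthest below 0 with wide errors.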

How the data were processed

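Gene-level RNA-seq of 12 tumours was analysed, with HI, HC, MI and MC holding 3 mice each, 1 library per mouse. Read pairs were 150 bases per the labels' protocols. The deposited counts are the authors' raw whole-number counts per gene, and the deposited FPKM are the authors' values for the same 35434 genes. For 100% of FPKM values above 0 the implied gene length was whole within 0.01 base, so they scale counts by length and library total. The submitters' processing notes list R 3.5.1 beside HTSeq 0.11.2 and DESeq2 1.22.2, a trimmer (fastp 0.20.1), an aligner (HISAT2 2.1.0) and the mouse build GRCm39, without roles or order. Annotation and strand setting: not given in the sources used here. Without strand, reads of overlapping genes cannot be told apart: in the annotation of the older build Col4a1 and Col4a2 share 22 exon bases and Col9a3 shares 234 with Tcfl5.

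The tests ran under R 4.3.3, with edgeR 4.0.16 as the main tool: TMM factors, the filterByExpr filter (15269 genes kept, all 36 members among them), a quasi-likelihood model with a mean for each of the 4 groups, and Benjamini-Hochberg adjustment over every gene tested. Permuting 3 against 3 mice exactly gives p of 0.1 at best, so spread was shared across genes. Alternatives were DESeq2 1.42.0, limma-voom and limma 3.58.1 on log2(FPKM + 0.1) with at least 0.5 FPKM in 3 libraries, other scalings and filters, 2 groups alone, a replicate block and leaving out each library. The FPKM filter left out members with low levels, among them Col4a6, Col11a2, Col2a1 and Col13a1. The edgeR script was tested on simulated data.

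Labels name no pairing. The deviations of same-numbered HC and MC libraries correlated at 0.278, 0.153 and 0.209, each the best match of its library. The numbers were therefore taken to pair those groups, from the data and not the design. Other pairs of groups were examined and did not match by number, and whether this pairing arose by chance was not tested. Library totals were 31661685 to 40019343 counts, and a count of 0 allows 3 counts, or 0.0728 to 0.0917 CPM, which covers counting error only. No pair of replicates agreed within sampling noise.

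Named members are Col1a1, Col1a2, Col3a1, Col4a1, Col4a2, Col15a1, Col18a1, Col6a1, Col6a3 and the 3 members with the smallest p in each of 7 comparisons, and named processing genes are the 3 of each list with the smallest p. Other members named were chosen after their values were seen. Members, classes and lists were chosen with earlier results of these data known. Of the keratinocyte list, 6 of 7 symbols were found.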

Additional observations from a re-analysis of the deposited data

How the results depend on the processing

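Direction did not change in any of the 937 fits of 42 named log2 changes, each under at most 23 alternatives. These changes were named for their small p in the main fit, and the fits share most libraries. A kept direction was therefore likely beforehand. Of the fits, 895 kept their side of the threshold, 31 became called and 11 lost a call, all 11 of Pcolce2. With DESeq2, called collagen genes were 6 in the altitude average, 2 in HC against MC and 5 in HI against MI, and called genes of all kinds 866, 314 and 381, with 19 in HI against HC, 29 in the interaction, 11 in the IOX2 average and 20 in MI against MC. The cause was not tested. With no filter on low counts, 3 collagens and 166 genes were called in the altitude average, 2 genes in HC against MC and 16 in HI against MI. limma-voom called 20 genes in the altitude average and 0 in MI against MC. RLE size factors gave 1 gene and the filter at 1 CPM 2 genes in HI against MI. The fit of 2 groups alone called 1 collagen and 63 genes in HC against MC and 2 genes in MI against MC. With the replicate block, 4 collagens (Col4a5, Col4a6, Col15a1 and Col18a1) and 155 genes were called in the altitude average, 13 genes in HC against MC and 3 in HI against HC. It changed no other count by over 1.5 times. Only for HC and MC did every library correlate best with its own number, and chance was not tested. Same-numbered libraries correlated at 0.257, 0.0717 and 0.131 for HI and MI, 0.313, -0.0904 and -0.104 for MI and MC, and -0.0208, -0.0745 and 0.244 for HI and HC. In none of these did every library correlate best with its own number. Leaving out 1 library gave 0 to 2 collagens and 2 to 339 genes in the altitude average (339 without HI3, 2 without MC2 or MC3), 0 to 4 collagens and 0 to 520 genes in HI against MI (520 without MI2), 0 to 40 genes in HC against MC (40 without HI1), 0 to 2 in the interaction and 0 to 6 in MI against MC. Leaving out MI1 and HC1 together, chosen after seeing the data, gave 4 genes in the altitude average and 2 in MI against MC. Class medians moved by more than the spread between replicates in 14 of 481 fits. The median of all genes stayed within 0.05 of 0 under every scaling.

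With 3 mice a group, a change that misses the threshold is not shown to be absent. Several chains under 1 FPKM rest on few counts, as Col2a1 with 2 to 19 a library.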
